A study of Mus musculus with 16 samples.

Results

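Oil-treated wounds of diabetic mice and wounds of normal mice were compared on 4 of the 16 arrays of the series, namely the 2 arrays of the db/db + vehicle group and the 2 arrays of the WT group that carry the label day 7. The arrays were chosen by their sample titles alone. The db/db + vehicle group consisted of female db/db mice aged 10 weeks, of the line C57BLKS/J Iar-+Lepr db/+Lepr db, and their wounds received sesame oil every day. Sesame oil was the solvent of the estradiol benzoate given to the db/db + estrogen group. The WT group consisted of 10 to 12-week-old female C57BL/6J mice, whose wounds received nothing. Both groups had full-thickness wounds on the back, and RNA was taken from the whole wound with the intact skin around it. The strain, the mutation of the leptin receptor gene with its diabetes, and the oil differed between the groups together and cannot be told apart in this comparison. The untreated db/db group differed from the db/db + vehicle group, by its labels, only in the oil, and its 2 arrays labelled day 7 are given beside the results where they bear on them. The study's text and the deposited labels give opposite days for these arrays, so that the age of the wounds is not settled here, and labelled day 7 is used only as a name.

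A skin wound closes through inflammation, regrowth of the epidermis and formation of granulation tissue. Neutrophils arrive first, macrophages clear them and then take on repair functions, and keratinocytes, fibroblasts and vessels fill the defect. The db/db mouse lacks the signalling form of the leptin receptor, becomes obese and diabetic, and is widely used as a model of slow healing.

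Levels are given as the log2 of the signal relative to the 75th percentile of the same array, so that 0 is that percentile and a difference of 1 is a 2-fold difference. A fold change is always that of db/db + vehicle over WT unless another pair is named. A probe was tested where 1 group or the other had it well above background on both of its arrays. It was called where the adjusted p of limma was below 0.05 and the fold change was over 2. The 75th percentile of the signal was 2072 and 1787 on the db/db + vehicle arrays, and 1204 and 1404 on the WT arrays. Between 73.4% and 77.4% of the probes were well above background, and saturation was seen at no spot. Replicates correlated over the probes tested with r = 0.985 in both groups. Of these probes, 7.51% in the db/db + vehicle group and 7.44% in the WT group differed more than 2-fold between the 2 replicates.

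The wounds held skin on all 4 arrays. The mean level of 4 keratinocyte genes (Krt5, Krt14, Krt1 and Krt10) was 6.49 and 6.93 in the db/db + vehicle group and 6.43 and 6.57 in the WT group. The mean level of 6 fibroblast genes, led by Col1a2, was 5.76 and 5.84 against 6.25 and 6.14. All of these genes were well above background on every one of the 4 arrays. Genes of skeletal muscle were bright as well, with a mean over 4 markers of 5.89 and 3.35 against 4.94 and 5.36. Vehicle replicate 2 therefore held the least muscle signal of the 4 arrays. In bulk tissue, fewer cells of a type and less RNA per cell cannot be told apart.

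In total, 1653 of 29684 probes (5.57%) were called, 606 higher (2.04%) and 1047 lower (3.53%). At an unadjusted p below 0.05 with the same fold, 3054 probes (10.3%) passed. Of the called probes, 772 differed more than 4-fold (210 higher and 562 lower) and 164 more than 16-fold. The db/db + vehicle and WT arrays did not overlap for any of the 1653 called probes, whereas 56.0% of all probes tested did not overlap. Each slide held 1 array of each group, and 1364 of the 1653 probes differed more than 2-fold, in the same direction, within both slides. Counted by gene, with the brightest probe standing for a gene, 894 of 16880 genes (5.30%) were called, 347 higher (2.06%) and 547 lower (3.24%). The median log2 fold change of all genes tested was 0.00. At an unadjusted p below 0.05 with no fold minimum, 13.0% of the genes tested were higher and 12.6% lower, and counts of list members by that rule are to be read against these shares. Counts of called list members are to be read against the 2.06% of all genes called higher and the 3.24% called lower. The number of called probes fell to 659 without vehicle replicate 1 and to 961 without vehicle replicate 2, and it was 1783 and 1378 without WT replicate 1 and 2. Quantile normalization raised the share of calls in the higher direction from 36.7% to 49.6%. A total of 115 of the higher calls were not well above background on either WT array, and 232 of the lower calls on neither db/db + vehicle array, so that the measured fold change of such a probe is not an exact size.

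**Figure D1:**
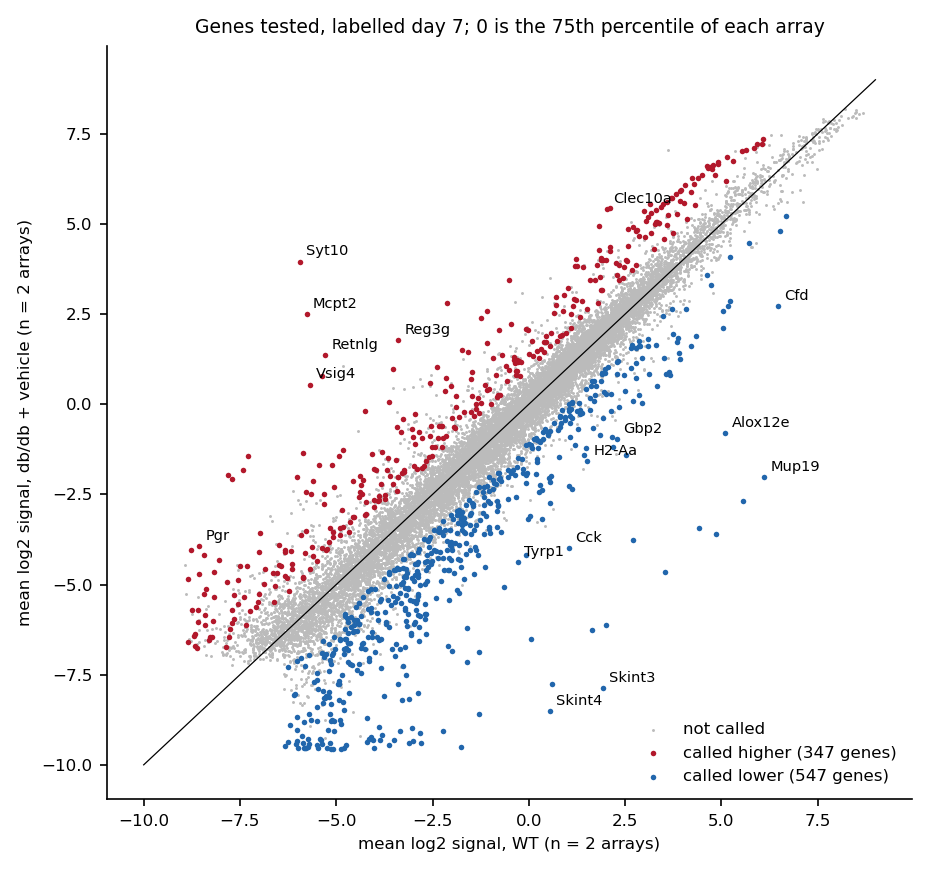
Mean log2 level of each of the 16880 genes tested in the WT group (horizontal axis) and in the db/db + vehicle group (vertical axis), 2 arrays each, with genes called higher in red (347) and lower in blue (547). Most genes lie along the diagonal, Syt10 and Mcpt2 lie far above it, and the Mup and Skint genes lie far below it.

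Of 7 tested genes in a list of genes that can differ between mouse strains, 4 rose by their brightest probe (Syt10, Naip6, Naip1 and Naip2). None fell by that probe, and the median log2 fold change was 1.07. The list also holds Thumpd1 and Med8, each with a dimmer probe that was called lower (given below). The list was written with earlier results of these arrays known, and between 2 and 4 of its genes were called when 1 array was left out. Syt10, a synaptotagmin, had levels of 3.89 and 4.02 in the db/db + vehicle group and of -6.24 and -5.65 in the WT group. Its log2 fold change of 9.90 ± 1.04 (SE, n = 2 arrays a group, adjusted p = 8.7e-04 with limma) was the largest increase among genes measured on all 4 arrays. The untreated db/db arrays stood at 4.31 and 3.14. Mcpt2, a protease of mast cells, was 1.95 and 3.05 against -7.07 and -4.46, although it was well above background on only 1 WT array. It rose by 8.27 ± 0.68 on the log2 scale (adjusted p = 2.1e-04), while the other mast cell proteases did not pass the test. Cma1, Cpa3, Mcpt4 and Tpsb2 had log2 fold changes from 0.54 to 1.33. Naip1, Naip2 and Naip6, sensors of bacterial flagellin and secretion systems that lie in a cluster of similar copies, rose by 2.58, 1.07 and 4.49, whereas Naip5 had a log2 fold change of 0.18. The call of Naip6 was lost without either vehicle array, and its 2 WT values were far apart (-8.39 and -3.32). Naip2 kept its call only without WT replicate 1. A second probe of Naip1 had a log2 fold change of 1.87 and did not pass (adjusted p = 0.12). With normexp background correction neither Naip1 (0.76) nor Naip2 (0.96) was called, and the log2 fold change was 7.97 for Syt10, 6.24 for Mcpt2 and 2.09 for Naip6.

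The major urinary proteins, small pheromone-binding proteins of the lipocalin family, were lower throughout. All 10 members tested fell, with log2 fold changes from -8.45 (Mup17) to -1.97 (Mup21) and a median of -8.01. Mup19 was -2.38 and -1.68 in the db/db + vehicle group against 6.69 and 5.53 in the WT group, a log2 fold change of -8.14 ± 0.68 (adjusted p = 2.2e-04). The copies are nearly identical in sequence, so that their probes cannot be taken as separate measurements. Between 9 and 10 of them were called whichever array was left out. The values in untreated db/db wounds were as low, with -1.31 and -2.66 for Mup19.

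The Skint genes, which encode butyrophilin-like proteins of epidermal keratinocytes and of which Skint1 is needed to select dendritic epidermal T cells, split by member. Of 10 members tested, 6 fell, 1 rose and 3 did not pass, with a median log2 fold change of -2.48. Skint3 stood at 1.64 and 2.20 in the WT group and did not rise well above background on the db/db + vehicle arrays. It was at least 577-fold lower, Skint4 at least 223-fold and Skint11 at least 45.4-fold, where the bound sets the WT mean against the lowest signal that was well above background. Skint1 was -4.70 and -3.62 against -1.63 and -1.63, a log2 fold change of -2.54 ± 0.66 (adjusted p = 0.044), and it lost its call without any one of the 4 arrays. Skint7 ran the other way, at 7.21 and 7.22 against 6.17 and 5.70, a log2 fold change of 1.29 ± 0.33 (adjusted p = 0.044). Its call also depended on all 4 arrays. The number of members called lower was 3 or 4 when any one array was left out.

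Some of the largest values belonged to a single probe of a gene. One probe of Thumpd1, a gene for tRNA acetylation, was at least 299.8-fold lower in the db/db + vehicle group, whereas its other probe was 1.13 and 1.38 against 1.28 and 1.28. One probe of Med8 was at least 38.8-fold lower and the other had a log2 fold change of 0.20. The 2 probes of Tox4 had log2 fold changes of 3.68 and 0.13, and those of Gprc5b 3.62 and 0.18. For Slc12a5, 1 probe was at least 22.9-fold higher, not being well above background in WT, and the other had a log2 fold change of 0.02. Xaf1, an interferon-induced regulator of apoptosis, had 2 probes that were called in opposite directions, at 6.15 and -1.95. Over the 4328 genes with several probes tested, 375 had at least 1 called probe, 76 had all their probes called and 9 had calls in both directions. Whether sequence differences between the strains under single probes play a part was not tested. For the leptin receptor gene Lepr itself, 1 probe did not pass the test (1.70 and 2.03 against 2.37 and 2.11), and 2 dimmer probes fell by 1.94 and 2.99 on the log2 scale (adjusted p = 0.0023 and 0.012).

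Other genes of large difference were measured on all 4 arrays. Vsig4, a complement receptor of resident macrophages, rose by 6.23 ± 0.54 (1.16 and -0.07 against -6.27 and -5.11, adjusted p = 2.7e-04). Fxyd2, a regulator of the sodium pump, rose by 3.99 and Adh6a, an alcohol dehydrogenase, by 4.92. Adh6a lost its call without any one array. On the lower side, Alox12e, an epidermal lipoxygenase, stood at -1.98 and 0.36 against 5.04 and 5.16, a log2 fold change of -5.91 ± 0.94 (adjusted p = 0.0070), and its call was lost without vehicle replicate 1. Cck, the gene of cholecystokinin, fell by 5.03, and Klra4, a receptor of natural killer cells, fell by 5.57. With normexp the log2 fold change was -3.15 for Klra4 and 4.42 for Vsig4.

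**Figure D2:**
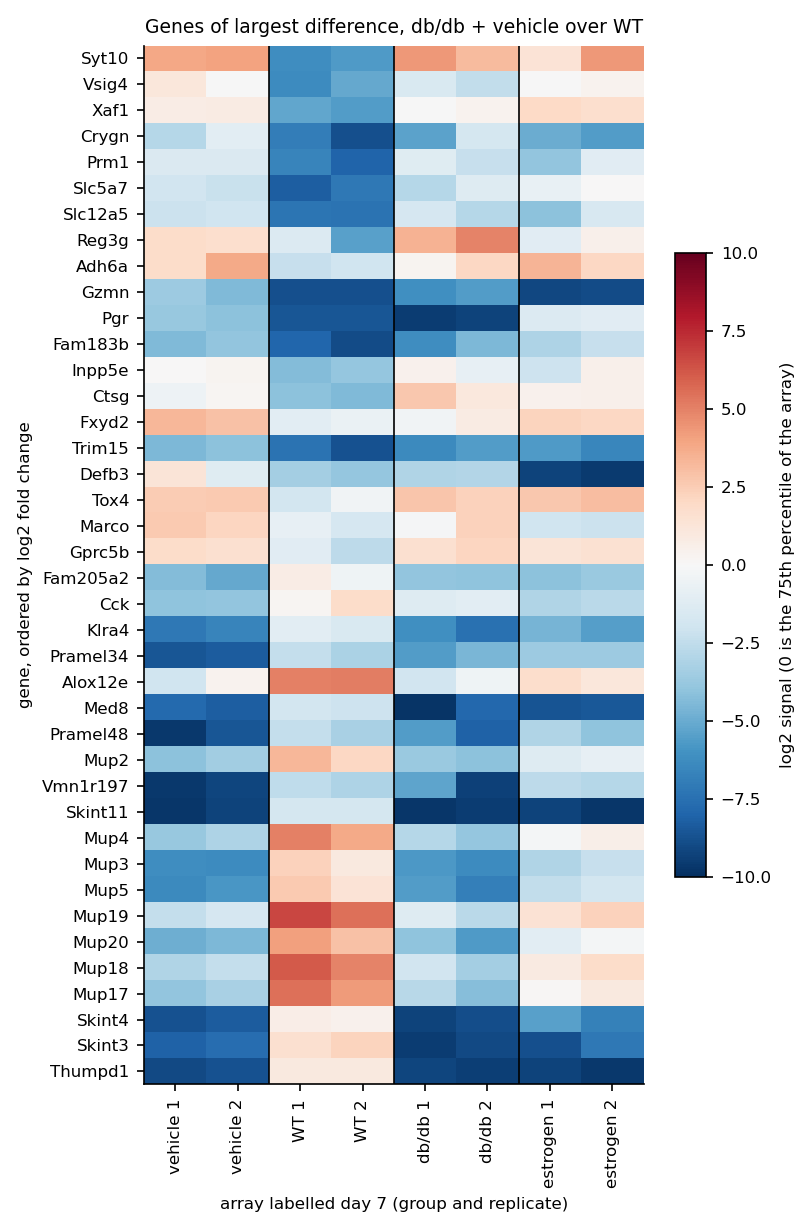
Log2 level, as colour, of the genes with the largest differences between db/db + vehicle and WT (rows) on the 8 arrays labelled day 7 (columns, 2 replicates of each group). For Syt10, Xaf1, the Mup genes, Skint3, Skint4, Skint11, Thumpd1 and Med8 the untreated db/db arrays resemble the oil-treated ones, while Pgr is high with oil and with estrogen and low in the other 2 groups.

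Pgr and Greb1, genes of estrogen response, were called between oil-treated and untreated db/db wounds as well as between oil-treated and WT wounds. The former encodes the progesterone receptor and the latter a cofactor of the estrogen receptor, and both are well-known targets of the estrogen receptor. Pgr stood at -3.76 and -4.11 in the db/db + vehicle group and did not rise well above background in WT (-8.55 and -8.58). It was at least 6.32-fold higher than in the WT group (adjusted p = 1.4e-04). The untreated db/db arrays were as low as WT (-9.51 and -9.22), and the db/db + estrogen arrays were higher (-1.40 and -1.09). Against untreated db/db, where it did not rise well above background either, Pgr was at least 11.1-fold higher with oil (measured log2 fold change 5.43 ± 0.36, adjusted p = 0.0010). With normexp background correction neither difference passed the test, at log2 fold changes of 0.98 against WT and 1.57 against untreated db/db (adjusted p = 0.11 for the latter). With a floor on dim signals the log2 fold change against untreated db/db was 2.64 and passed. With the replicate number as a block Pgr kept its call against untreated db/db, and with only the 4 arrays of that comparison it did not pass (adjusted p = 0.28). A second, dimmer probe of Pgr had a log2 fold change of 2.11 ± 0.62 against WT (adjusted p = 0.065).

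Greb1 was 0.45 and 0.28 in the db/db + vehicle group, -2.07 and -2.30 in the WT group, -5.19 and -3.57 in the db/db group, and 2.77 and 2.90 in the db/db + estrogen group. None of these groups overlapped, and the order of their means was db/db, WT, db/db + vehicle and db/db + estrogen. Greb1 rose against WT by 2.55 ± 0.53 (adjusted p = 0.021) and against untreated db/db by 4.74 ± 0.53 (adjusted p = 0.017). Its second probe rose by 1.98 and 2.25. Neither probe of Greb1 was called against untreated db/db with the replicate number as a block (adjusted p = 0.053 and 0.082) or with only the 4 arrays of that comparison (adjusted p = 0.40 and 0.39). The call of the first probe against WT was lost without any one of the 4 arrays, although the value stayed between 2.43 and 2.66. Esr1, the estrogen receptor alpha, fell by 1.99 ± 0.36 (-3.31 and -3.41 against -1.13 and -1.61, adjusted p = 0.013) and was as low in untreated db/db wounds (-3.53 and -3.22). It kept its call only without WT replicate 2. A second probe of Esr1 had a log2 fold change of -0.78 and did not pass (adjusted p = 0.090). Esr2 and Gper1, the genes of other estrogen receptors, and Nr3c1, that of the glucocorticoid receptor, did not pass, with log2 fold changes from -0.36 to 0.06. Levels of estrogen in the oil, on the skin or in the blood were not measured on these arrays.

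**Figure D3:**
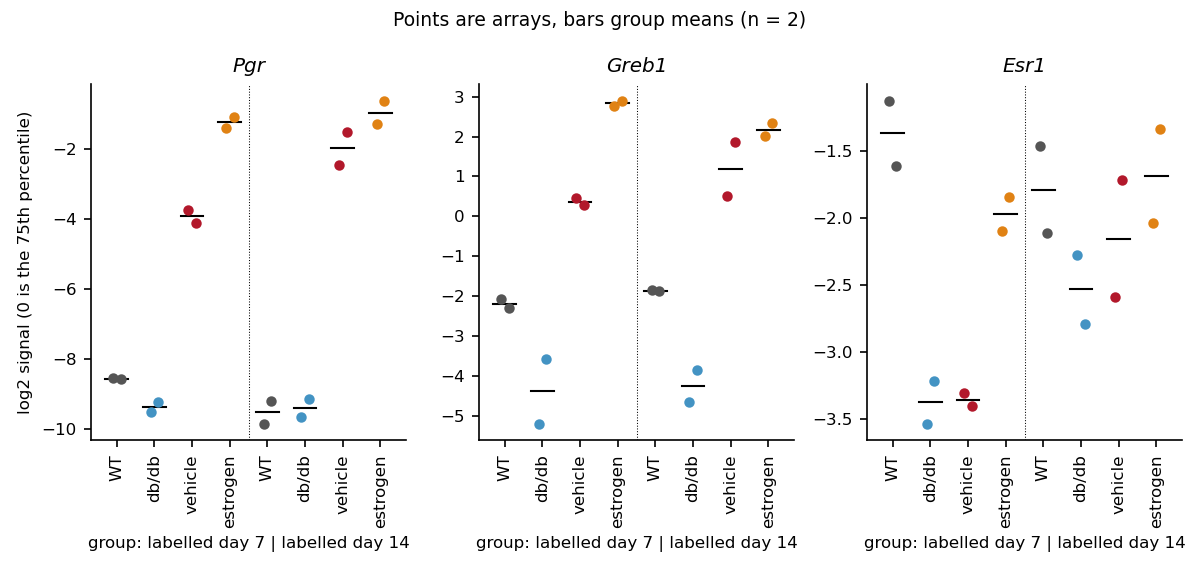
Log2 level of Pgr, Greb1 and Esr1 (vertical axes) on all 16 arrays, by group and labelled day; points are arrays and bars are means of 2 arrays. Pgr and Greb1 lie above both WT and untreated db/db with oil and with estrogen on both labelled days, and Esr1 on labelled day 7 is lower in both oil-treated and untreated db/db wounds than in WT.

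In the lists of neutrophils, cytokines, the acute phase and antimicrobial defence, the called genes were all higher in oil-treated wounds, but most members were not called. Of 29 genes of neutrophils and their granules, 6 rose and none fell, and the median log2 fold change was 1.42. The 6 were Retnlg, Ctsg, Mrgpra2a, Mrgpra2b, Lcn2 and Trem3, of which Mrgpra2a and Mrgpra2b are near-identical copies. Mrgpra2a was not called with normexp. With the replicate number as a block, Retnlg, Mrgpra2a and Mrgpra2b were not called. Ctsg, the granule protease cathepsin G, was -0.54 and 0.18 against -4.09 and -4.41, a log2 fold change of 4.07 ± 0.46 (adjusted p = 0.0012), and it was called whichever array was left out. Retnlg, a resistin-like protein of neutrophils, was 1.84 and 0.91 against -2.60 and -7.97, so that the WT arrays lay farther apart from each other than the higher one lay from the lower db/db + vehicle array. The number of called genes was 1 without either vehicle array, 2 without WT replicate 2 and 10 without WT replicate 1. S100a8 and S100a9, the abundant calcium-binding proteins of neutrophils and of wounded keratinocytes, were bright on all 4 arrays (7.61 and 7.31 against 6.56 and 6.55 for S100a8) and did not pass. The granule genes Ngp, Ltf and Camp did not pass either, and Ngp was not well above background on the WT arrays. Ltf (lactoferrin) was -5.51 and -3.28 against -6.19 and -5.06, and Camp (cathelicidin) was -4.02 and -1.37 against -3.81 and -3.57. In untreated db/db wounds these granule genes were much higher, at 3.25 and 1.76 for Ltf and 4.11 and 2.66 for Camp. The mean level of the list was 0.94 and 1.07 with oil, -0.32 and -0.88 in WT and 3.10 and 2.65 in untreated db/db wounds.

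In the list of neutrophil-attracting chemokines, which also holds Pf4, 6 genes were tested and only Pf4 was called. All 6 were higher at an unadjusted p below 0.05 by limma, beside 13.0% of all genes tested. Pf4, a chemokine of platelets and macrophages, was 5.38 and 5.21 against 3.04 and 3.28, a log2 fold change of 2.14 ± 0.38 (adjusted p = 0.011), and this call was lost without vehicle replicate 1. Cxcl3 had a larger log2 fold change of 5.88 ± 1.60, which did not pass (adjusted p = 0.051). Its arrays stood at 1.79 and 0.35 with oil and at -3.13 and -6.51 in WT. Among 25 other chemokines, Ccl2, Ccl12 and Ccl9, which attract monocytes, rose. Ccl27a and Ccl28, which keratinocytes and epithelia make to attract T cells, and Cx3cl1 fell. None of the 3 higher calls remained without vehicle replicate 1 or WT replicate 2. Ccl27a was 1.13 and 3.08 against 4.94 and 5.13, a log2 fold change of -2.93 ± 0.67 (adjusted p = 0.030), and it kept its call only without vehicle replicate 2. Of 26 cytokines, Csf3 and Il10 rose. Csf3, the growth factor of neutrophils, was -2.10 and -1.52 against -6.10 and -8.73, a log2 fold change of 5.60 ± 1.11 (adjusted p = 0.018), and kept its call only without WT replicate 1. It was well above background on only 1 WT array, and its log2 fold change was 2.47 with normexp. Il10, an anti-inflammatory cytokine, rose by 1.07 ± 0.20 (adjusted p = 0.014). Il6 (3.35, adjusted p = 0.056), Il1b (2.06, adjusted p = 0.23) and Tnf (1.05, adjusted p = 0.19) did not pass. Il10 kept its call without vehicle replicate 1 or WT replicate 1, and no cytokine was called without vehicle replicate 2 or WT replicate 2. Normexp background correction lowered the value of Il10 to 0.07.

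Saa1 and Ptx3, acute-phase proteins, rose by 3.33 and 2.20, and were the only 2 of 14 such genes to pass. WT replicate 1 stood high for Saa1 (3.44, against 0.79 on replicate 2), and its call held only without that array. Ptx3 lost its call without vehicle replicate 1 or WT replicate 2, and neither gene was called with the replicate number as a block. Of 13 antimicrobial genes, Reg3g, Defb3 and Slpi rose and none fell. Reg3g, a lectin that kills Gram-positive bacteria, was 1.87 and 1.69 against -1.36 and -5.43 (log2 fold change 4.27 with normexp), and the call held only without WT replicate 1. Defb3, a beta-defensin, was 1.31 and -1.18 against -3.40 and -3.87, a log2 fold change of 3.70 ± 0.77 (adjusted p = 0.021). Its value ran from 2.46 to 4.94 with 1 array left out, and its call was lost without vehicle replicate 1 or WT replicate 2. Slpi, an inhibitor of neutrophil elastase, was 5.86 and 4.89 against 3.01 and 2.96, a log2 fold change of 2.39 ± 0.44 (adjusted p = 0.013), lost only without vehicle replicate 1. Without that array none of the 3 was called.

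Of 19 genes linked to the alternative activation of macrophages, which goes with repair, 6 rose, among them Clec10a, Cd163, Cd209b, Folr2 and Cd36, and none fell, with a median log2 fold change of 1.07. Clec10a, a galactose lectin, was 5.44 and 5.39 against 2.62 and 1.42, a log2 fold change of 3.39 ± 0.38 (10.5-fold, adjusted p = 0.0011). Cd163, a scavenger receptor for haemoglobin, was -1.55 and -2.48 against -4.69 and -7.32, a log2 fold change of 3.99 ± 0.71 (adjusted p = 0.011), although it was well above background on only 1 WT array and its log2 fold change was 2.09 with normexp. Clec10a was called whichever array was left out, Cd163 lost its call without vehicle replicate 1, and the number of called genes of the list ran from 4 to 8. Cd209b was not well above background in WT and was at least 3.36-fold higher, and it kept its call only without vehicle replicate 2. With normexp its log2 fold change was 0.84 and it was not called. Retnla (-0.22) and Mrc1 (0.99), often used as markers of this state, did not pass, nor did Chil3 (2.17, adjusted p = 0.061). Of 20 general macrophage genes, Marco, Cd14 and Msr1 rose. Msr1, a scavenger receptor, was -0.17 and 0.01 against -1.70 and -2.08, a log2 fold change of 1.81 ± 0.20 (adjusted p = 0.0010), and held its call whichever array was left out. Marco lost its call without vehicle replicate 1 or WT replicate 2, and Cd14 kept its call only without WT replicate 1. Itgam, the integrin alpha M, had 1 probe lower (-2.02) and another higher (1.20), and no direction is given for it. The general markers Adgre1, Csf1r, C1qa and C1qb had log2 fold changes from 0.70 to 1.01 by their brightest probes and did not pass, although a second probe of Adgre1 rose by 1.05 (adjusted p = 0.042). The mean over 5 macrophage markers was 3.08 and 3.10 with oil and 2.34 and 1.81 in WT. Whether the number of macrophages plays a part in the higher values was not tested.

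Of 18 genes of eicosanoid synthesis, Alox5 and Alox5ap rose, and Alox12e (above) and Ptgds, a prostaglandin D synthase, fell. The first of these, 5-lipoxygenase, makes leukotrienes from arachidonic acid. Alox5 was 0.67 and -0.21 against -1.77 and -2.0, a log2 fold change of 2.12 ± 0.31 (adjusted p = 0.0045). Alox5ap, its activating protein, was 4.10 and 3.89 against 2.58 and 2.44, a log2 fold change of 1.48 ± 0.17 (adjusted p = 0.0012). Both were called whichever array was left out. Neither lower gene was called without vehicle replicate 1. Untreated db/db wounds stood at 0.12 and -0.42 for Alox5 and at 4.20 and 3.89 for Alox5ap.

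Of 31 interferon-induced genes, 7 fell in oil-treated wounds and none rose, 27 had a log2 fold change below 0 and the median was -0.85. The 7 were Gbp2, Ifi44, Isg15, Irgm2, Tgtp1, Gbp7 and Bst2, which act in cell-autonomous defence against viruses and intracellular bacteria. Gbp2, a guanylate-binding protein, was -1.5 and -0.43 against 2.58 and 2.02, a log2 fold change of -3.26 ± 0.37 (adjusted p = 0.0012), and was called whichever array was left out. Isg15, a ubiquitin-like modifier, was 1.01 and 1.27 against 2.75 and 2.84, a log2 fold change of -1.65 ± 0.39 (adjusted p = 0.031). The groups did not overlap for these 2 genes, but Isg15 lost its call without any one of the 4 arrays. The number of called genes was 1 without vehicle replicate 1 or WT replicate 1, 4 without vehicle replicate 2, 3 without WT replicate 2, and 3 with the replicate number as a block. The mean level of the list was -1.07 and -0.65 with oil, 0.24 and -0.16 in WT and -1.82 and -1.66 in untreated db/db wounds.

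Interferons act through transcription factors that bind the interferon-stimulated response element, and the promoters of a strongly and a weakly separated gene are shown for that reason. The letters GAAA, any 2 bases and GAAA again were searched on both strands of the 300 bases around each RefSeq gene start (250 before and 50 after, build GRCm38.p6). They occurred in 3.44% of 32851 such promoters, in at least 1 promoter of 17 of the 22 interferon-induced genes with a promoter in the table, and in 6 of the 7 called ones. The 250 bases before the start follow from 5′ to 3′ on the gene's strand, with matches in capitals. Matches may overlap one another, and Isg15 holds 3 that do.
Gbp2, chr3:142620413-142620662, plus strand: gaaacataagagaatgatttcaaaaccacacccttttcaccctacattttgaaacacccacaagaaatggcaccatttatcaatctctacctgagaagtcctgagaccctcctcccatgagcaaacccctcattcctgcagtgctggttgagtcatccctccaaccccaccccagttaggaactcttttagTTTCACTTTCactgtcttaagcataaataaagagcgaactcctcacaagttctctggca
Isg15, chr4:156200819-156201068, minus strand: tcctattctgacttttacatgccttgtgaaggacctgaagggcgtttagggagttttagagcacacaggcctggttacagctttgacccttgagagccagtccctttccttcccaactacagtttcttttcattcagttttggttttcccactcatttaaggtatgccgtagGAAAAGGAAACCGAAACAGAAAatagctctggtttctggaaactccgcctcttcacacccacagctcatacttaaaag
The match of Gbp2 begins at position -59, counted from the gene start. Binding was not measured on these arrays.

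Few genes of antigen presentation and of T cells were called. H2-Aa, the alpha chain of a class II molecule, was -2.28 and -0.88 against 1.56 and 1.47, a log2 fold change of -3.09 ± 0.40 (adjusted p = 0.0026), and was called whichever array was left out. It was the only one of 12 genes of class II presentation and Langerhans cells to be called, and 5 were called without vehicle replicate 2. The log2 difference was above 0 for none of the 12 within slide 1 and for 6 within slide 2, where the mean level of the list was 0.47 with oil and 0.61 in WT. The class II molecules differ in sequence between the haplotypes of the 2 strains. Of 22 genes of T and natural killer cells, Cd28 (-2.84) and Klrd1 (-2.51) fell. Neither was called without vehicle replicate 1 or WT replicate 1. The log2 difference was above 0 for 2 of the 22 within slide 1 and for 15 within slide 2. The mean level of this list within slide 2 was -1.91 with oil and -1.93 in WT. The general T cell markers Cd3e, Cd3d, Cd3g, Cd2 and Lck had log2 fold changes from -1.11 to -0.19 and did not pass.

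**Figure D4:**
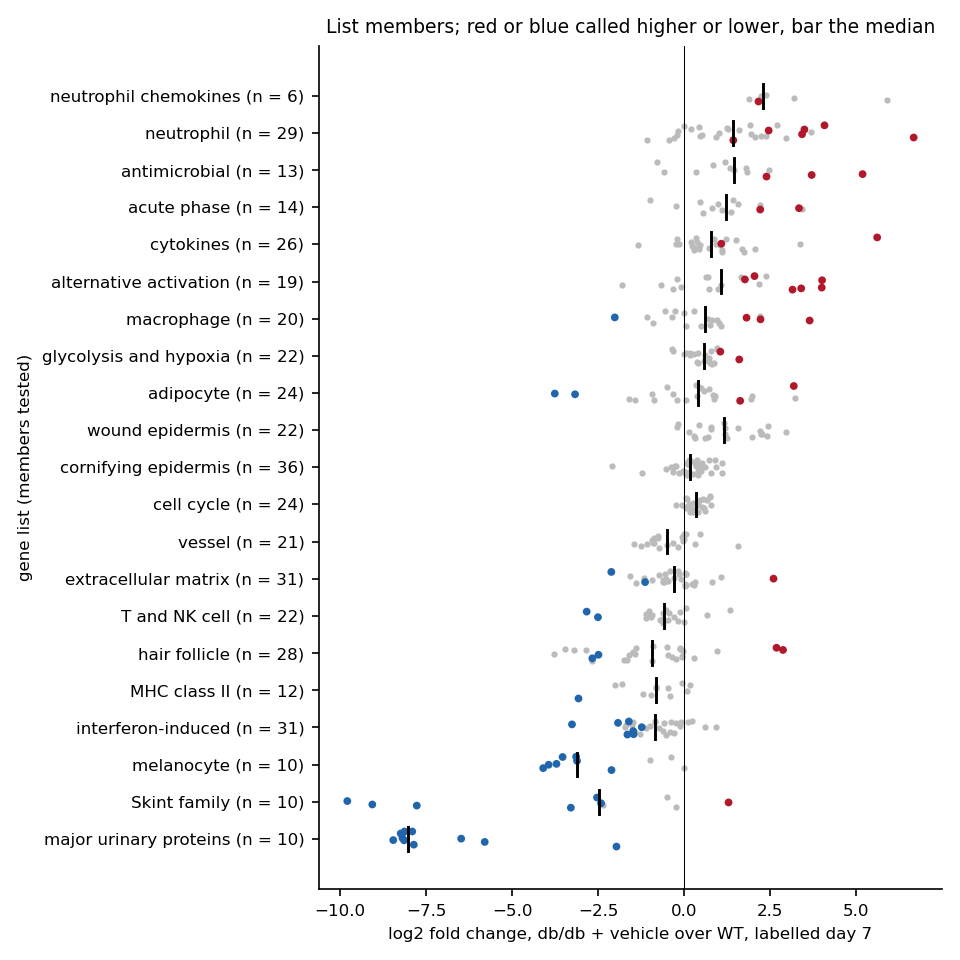
Log2 fold change of db/db + vehicle over WT (horizontal axis) for the members of 21 gene lists (rows), with called genes in red or blue, other genes in grey and the median of each list as a black bar. The medians of the neutrophil, antimicrobial and macrophage lists lie to the right of 0, and those of the interferon-induced, melanocyte, Skint and major urinary protein lists to the left, with members on both sides in several lists.

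The oil-treated replicates differed widely in pigment genes. Of 10 melanocyte genes, Tyrp1, Dct, Oca2, Mlana, Pmel, Slc45a2 and Gpr143 fell and none rose, with a median log2 fold change of -3.13, or -2.65 with Oca2, which was not well above background with oil, at its bound. With normexp Tyrp1 had a log2 fold change of -3.12 and Oca2 of -1.15. Dct, an enzyme of eumelanin synthesis, was -3.17 and 0.34 against 2.24 and 2.81, a log2 fold change of -3.94 ± 0.92 (adjusted p = 0.030). Tyrp1, another such enzyme, was -6.09 and -2.67 against -0.77 and 0.20, a log2 fold change of -4.10 ± 0.93 (adjusted p = 0.029). Vehicle replicate 1 was the lowest array for both. None of the genes was called without vehicle replicate 1 or without WT replicate 2, 2 were called without WT replicate 1 and 6 without vehicle replicate 2. Mitf, the master regulator of melanocytes that other cells also express, did not pass (1.47 and 1.34 against 1.48 and 1.34, adjusted p = 0.995 with limma), and Tyr, the rate-limiting enzyme, had a log2 fold change of -0.99 and did not pass. In untreated db/db wounds Dct stood at -1.62 and -1.01 and Tyrp1 at -4.20 and -3.70, between the oil-treated arrays, whereas Mlana stood at 0.10 and -0.08 there and at -4.54 and -1.83 with oil. The summed signal of 4 melanocyte markers, relative to the 75th percentile, was 0.201 and 1.77 with oil and 6.24 and 9.49 in WT, with Dct as the brightest. Whether the number of pigment cells plays a part was not tested.

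Melanocyte genes carry in their promoters the M-box, bound by the factor MITF, whose core is CATGTG, a form of the E-box. The promoters of 2 enzymes that fell and of Tyr, which did not pass, are shown for comparison. The core, read on both strands of the same 300 bases, occurred in 14.2% of all 32851 promoters, in 5 of the 6 melanocyte genes with a promoter in the table, and in all 3 of the called genes among them. The 250 bases before each start follow, with matches on either strand in capitals.
Tyrp1, chr4:80833963-80834212, plus strand: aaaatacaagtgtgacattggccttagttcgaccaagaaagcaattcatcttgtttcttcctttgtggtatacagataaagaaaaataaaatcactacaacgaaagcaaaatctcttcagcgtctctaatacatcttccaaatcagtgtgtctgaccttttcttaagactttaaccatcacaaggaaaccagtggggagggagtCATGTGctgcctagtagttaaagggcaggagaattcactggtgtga
Dct, chr14:118052247-118052496, minus strand: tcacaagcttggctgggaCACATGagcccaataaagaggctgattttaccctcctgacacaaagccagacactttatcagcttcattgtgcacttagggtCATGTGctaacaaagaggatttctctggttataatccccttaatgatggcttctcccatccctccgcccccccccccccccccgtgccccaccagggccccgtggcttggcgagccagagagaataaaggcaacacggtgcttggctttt
Tyr, chr7:87493513-87493762, minus strand: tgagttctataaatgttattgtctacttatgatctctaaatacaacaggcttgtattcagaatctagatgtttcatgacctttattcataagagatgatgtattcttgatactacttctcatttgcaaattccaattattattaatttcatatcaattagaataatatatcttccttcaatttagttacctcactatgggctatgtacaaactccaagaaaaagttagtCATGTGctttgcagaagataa
The match begins at position -46 in Tyrp1 and at -21 in Tyr, and Dct holds 2 matches. The promoters with the core thus included a gene that did not pass the test.

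The result for hair follicle genes depended on which WT array was used. Krt71, a keratin of the inner root sheath, was -1.20 and 4.0 in WT and -4.08 and 0.46 with oil. Krt25, of the same sheath, was -1.93 and 2.75 against -5.23 and -1.52, and did not pass (log2 fold change -3.78, adjusted p = 0.13). Replicate 2 was the higher one in both groups. Of 28 hair genes, Hoxc13 and Lef1, transcription factors of the growing hair, fell, and Tchhl1 and Krt84 rose. Hoxc13 was -4.47 and -3.62 against -1.67 and -1.08, a log2 fold change of -2.67 ± 0.36 (adjusted p = 0.0033), and was the only one of the 4 that was called whichever array was left out. Without WT replicate 1, 11 hair genes were called lower.

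**Figure D5:**
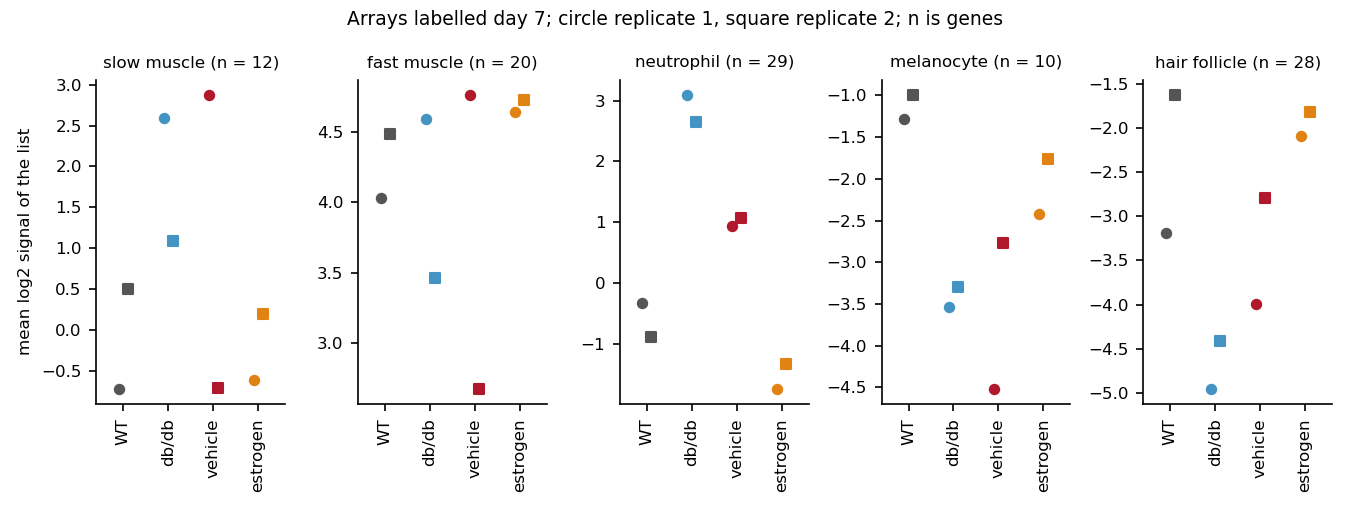
Mean log2 level of the members of 5 gene lists (vertical axes) on the 8 arrays labelled day 7, with circles for replicate 1 and squares for replicate 2. Slow muscle is high on vehicle replicate 1 (2.88) and on the db/db arrays, neutrophil genes are highest in untreated db/db wounds, and replicates of the hair follicle list lie apart with oil and in WT.

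No gene of the epidermal lists was called. The 22 genes of the wound-activated epidermis had a median log2 fold change of 1.16 and 6 genes higher at an unadjusted p below 0.05 by limma (13.0% of all genes tested). The log2 difference was above 0 for 21 of the 22 within slide 1 and for 12 within slide 2, where the mean level was 3.15 with oil and 2.99 in WT. Sprr2f, a precursor of the cornified envelope, was 4.35 and 2.67 against 0.02 and 1.09 (log2 fold change 2.96 ± 0.95, adjusted p = 0.083). Krt16 and Krt6b, keratins of wound-edge keratinocytes, had log2 fold changes of 0.12 and 0.29. None of 36 genes of the cornifying epidermis (median 0.17, at an unadjusted p 0 higher and 2 lower) and none of 13 genes of the basal epidermis (median 0.10, 0 and 0) was called.

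Single genes of fat were called, and none of muscle. In the adipocyte list of 24 genes, Lpl and Ucp1 rose and Cfd and Adrb3 fell, while Adipoq, Plin1, Cidec and Fabp4 had log2 fold changes from -0.22 to 0.85 and did not pass. A second probe of Lpl had a log2 fold change of 0.67 and did not pass (adjusted p = 0.32). Adrb3, the beta-3 adrenergic receptor of fat, was -3.17 and -3.21 against -0.08 and 0.05, a log2 fold change of -3.17 ± 0.45 (adjusted p = 0.0042), and was called whichever array was left out. Cfd, the adipsin that is low in obese mice, was 2.84 and 2.58 against 6.51 and 6.44, a log2 fold change of -3.76 ± 0.92 (adjusted p = 0.036), and lost its call without any one array. Lep, leptin itself, was -0.15 and -0.27 against -3.54 and -3.30, and its log2 fold change of 3.21 ± 0.87 lay at the threshold (adjusted p = 0.051). It passed with quantile normalization (3.5) and with normexp (2.64). Neither Lpl nor Ucp1 was called without WT replicate 1 or vehicle replicate 2, and Ucp1, the uncoupling protein of brown fat, was not well above background in WT, lost its call without any one array and had a log2 fold change of 0.11 with normexp. Slow-twitch muscle genes were high on vehicle replicate 1 only, with Myh7 at 5.09 there, -3.69 on vehicle replicate 2 and -4.25 and -1.39 in WT. Myl2, Myl3 and Myh7b showed the same split, and untreated db/db wounds had 4.48 and 2.26 for Myh7. No slow muscle gene (12 tested, at an unadjusted p 1 higher and 1 lower) and no fast muscle gene (20 tested, 0 and 0) was called. Whether the share of muscle in the tissue taken plays a part in other differences was not tested.

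Of 31 genes of the extracellular matrix, Spp1 rose and Col14a1 and Lum fell. Spp1, osteopontin, was 3.30 and 4.39 against 1.68 and 0.82, a log2 fold change of 2.59 ± 0.50 (adjusted p = 0.016), lost without vehicle replicate 2 or WT replicate 2. Neither lower gene was called without vehicle replicate 1, vehicle replicate 2 or WT replicate 2. A second probe of Col14a1 had a log2 fold change of -1.93 and did not pass (adjusted p = 0.098). The main fibrillar collagens Col1a1, Col1a2 and Col3a1 had log2 fold changes from -0.61 to -0.47 and did not pass. Among 22 proteases and inhibitors 3 rose and none fell, among them Mmp1b, a collagenase, and Adam8, a metalloprotease of leukocytes. Mmp1b was not well above background in WT and was at least 3.72-fold higher, and it lost its call without any one array. With normexp its log2 fold change was 0.62 and it was not called. Adam8 was 4.36 and 4.82 against 3.99 and 3.03, a log2 fold change of 1.09 ± 0.29 (adjusted p = 0.047), and kept its call only without WT replicate 1. No gene of this list was called without either vehicle array. Of 28 growth factors and receptors, Tgfb3, which has been linked to scarless healing, fell by 1.22 ± 0.32 (adjusted p = 0.048), with its call kept only without WT replicate 1. A single lower call among 28 genes is close to the 3.24% of all genes tested that were called lower. Vegfa did not pass (1.19, adjusted p = 0.062). No vessel gene was called, but 10 of 21 were lower and 1 was higher at an unadjusted p below 0.05 by limma, beside 12.6% lower and 13.0% higher over all genes tested, with a median log2 fold change of -0.50. Within each slide 6 of the 21 had a log2 difference above 0. Pecam1 was -1.64 and -1.88 against -1.22 and -0.84 (log2 fold change -0.73 ± 0.24, adjusted p = 0.090).

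Of 22 genes of glycolysis and hypoxia, Car9 and Slc16a3 rose, 12 were higher at an unadjusted p below 0.05 (13.0% of all genes tested) and none was lower. Car9, a carbonic anhydrase induced by low oxygen, was 0.10 and -0.88 against -1.95 and -2.01, a log2 fold change of 1.60 ± 0.40 (adjusted p = 0.038). It kept its call only without vehicle replicate 2, and neither gene was called with the replicate number as a block. Cell cycle genes (24 tested, median 0.35, at an unadjusted p 5 higher and 0 lower) and clock genes (15 tested, median -0.02, 2 and 0) held no called gene. The share of clock genes higher by this rule was close to the 13.0% of all genes tested. Elovl5, an elongase of polyunsaturated fatty acids, was the only one of 22 sebaceous and lipogenic genes to be called, at 1.46 and 1.76 against 3.06 and 2.65, a log2 fold change of -1.25 ± 0.19 (adjusted p = 0.0053), and it was called whichever array was left out. No gene of leptin and insulin signalling (13 tested, at an unadjusted p below 0.05 by limma 2 higher and 2 lower, beside 13.0% and 12.6% of all genes tested) or of the immediate early response (11 tested, 1 and 4) was called. Of 13 kallikreins Klk1b11 rose by 3.41, and it was not called with normexp (1.1). No kallikrein was called without vehicle replicate 1, vehicle replicate 2 or WT replicate 2.

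Few probes separated oil-treated from untreated db/db wounds. Between these groups 44 of 29786 probes (0.148%) were called, 11 higher with oil (0.0369%) and 33 lower (0.111%). This comparison is also the test of whether the oil-treated and the untreated db/db wounds differed from WT by different amounts, since the WT arrays cancel. Among the higher probes were both probes of Greb1, 1 of Pgr, and Ptpn5, a phosphatase of neurons, which was -1.11 and -1.53 with oil, -4.14 and -4.87 without, and 0.13 and 0.17 with estrogen (log2 fold change with oil 3.18 ± 0.35, adjusted p = 0.017). Among the lower probes were Ltf (-6.91 ± 0.75, adjusted p = 0.017), Camp, Itgb2l, Ceacam10 and Trem3, all genes of neutrophils. Ccl4, a chemokine for monocytes and T cells, was -0.36 and -0.40 with oil and 2.67 and 3.58 without, and Vcam1, an adhesion molecule of activated vessels, was 0.53 and 0.59 against 3.84 and 3.76. Il10 was lower with oil than without (-1.89 ± 0.20, adjusted p = 0.017), but with normexp this difference was -1.24 and did not pass (adjusted p = 0.064). With normexp Itgb2l did not pass either (-1.62, adjusted p = 0.066), and Ceacam10 stood at -2.63 and passed. Itgb2l was not well above background with oil and was at least 16.1-fold lower. The calls of Vcam1, Trem3 and the second probe of Greb1 were lost without db/db replicate 1 or either vehicle array, that of Ceacam10 without either vehicle array and that of Ccl4 without vehicle replicate 2. The brighter probe of Camp lost its call without db/db replicate 1, and its other probe was called whichever array was left out. On labelled day 7 the replicate number is also the slide, and the replicate differences of these 2 groups correlated with 0.332 over probes. The count of probes was 1 with the replicate number as a block, 0 when only the 4 arrays compared were fitted (1437 at an unadjusted p below 0.05 by limma with all arrays), and from 46 to 264 with any one array dropped (102 without vehicle replicate 1, 143 without db/db replicate 1 and 264 without db/db replicate 2).

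The arrays labelled day 14 are other arrays than those above, but all entered the same fit and share its estimate of the spread. On labelled day 14, 2689 of 30520 probes (8.81%) were called between db/db + vehicle and WT. Of the 29221 probes tested on both labelled days, 1603 were called on labelled day 7 and 2559 on labelled day 14. A total of 563 were called in the same direction on both, which is 35.1% of the former and 22% of the latter, and 10 were called in opposite directions. Of the 1603, 1349 had a fold change in the same direction on labelled day 14. The share with the same direction over all probes tested on both labelled days is not given beside this count. Syt10 (8.71), Mcpt2 (7.66), Skint3 (-10.72), Mup19 (-6.68), Gbp2 (-3.13), H2-Aa (-2.30), Clec10a (2.73) and Alox5ap (1.36) were called there with the same sign as on labelled day 7. Retnlg (1.87), Saa1 (0.34), Reg3g (0.97), Csf3 (-0.14), Dct (-1.31) and Isg15 (-0.72) were not called there. The difference between the labelled days was called for 488 of 29683 probes (1.64%). That count rested on single arrays. On labelled day 7 it was 32 without vehicle replicate 1, 109 without vehicle replicate 2 and 964 without WT replicate 1. On labelled day 14 it was 7 without vehicle replicate 1, 0 without vehicle replicate 2, 1239 without WT replicate 1 and 10 without WT replicate 2. Of the 29683 probes, 2760 passed at an unadjusted p below 0.05 with a 2-fold difference by limma. The scans of the labelled days were made on separate days, so that scan and labelled day cannot be told apart.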

How the data were processed

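RNA from whole wounds was hybridised to 1-colour mouse arrays, 16 in all. The authors deposited scanner files whose processed intensity, from Feature Extraction 11.0.1.1, was background-subtracted and spatially detrended with no scaling between arrays. They also deposited a table of ratios of each intensity to the 75th percentile of its array, made in GeneSpring, which matched the scanner values within 1% for at least 99.772% of 34643 probes. The study's own test was a moderated t-test with a fold change over 2. No control spot entered the analysis, and spots of one probe were averaged, giving 39429 probes, of which 27427 (69.56%) carried a symbol.

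From the deposited intensity, log2 values minus the 75th percentile of each array were computed and fitted with limma 3.58.1 in R 4.3.3, with 1 coefficient for each of 8 groups and 8 residual degrees of freedom. Benjamini-Hochberg adjustment ran over all probes tested. Errors are those of the fit. For a probe not well above background in a group, the bound sets the mean of the other group against the mean of, per array, the higher of its own signal and the lowest signal that was well above background. An exact permutation test of 2 against 2 arrays cannot go below 0.333. The labels call the 2 arrays of a group biological replicates, and nothing more on their source is given. Their number limits the precision. The arrays of labelled day 7 lay on 2 slides, each with 1 array of every group.

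The 38 gene lists, the members and the tests were chosen with earlier results of these data known, so that no set test was run. A list is described by its counts and its median beside all genes tested, 1 probe a gene (the brightest over the 16 arrays). Named genes were the 12 of largest fold change in each direction well above background on all 4 arrays, the 8 of largest bound in each direction, up to 4 called members of each list with the cell type markers, and a short fixed list. Other genes named were chosen after their values were seen. Alternatives were normexp background correction (offset 50), quantile normalization, no or a stricter filter on dim probes, a floor on dim signals, the deposited ratios, other sets of arrays, slide or replicate number as a block (statmod 1.5.0), and leaving out each array. The scripts were tested on simulated data. Promoter sequences are from RefSeq. Some genes of the lists are not reported here.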

Additional observations from a re-analysis of the deposited data

Results flagged for a closer look

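The difference between db/db + vehicle and WT wounds was itself tested between the labelled days, as a contrast in limma, and 4 named genes passed. Over all probes tested, 488 of 29683 (1.64%) passed. The rule for naming genes gave 163 genes, chosen partly for large differences on labelled day 7. That choice favours a difference between the days, so that no conclusion about the days is drawn from these 4. Pramel48 and Pramel34 had log2 fold changes of -6.29 and -5.62 on labelled day 7 and of 0.38 and 0.93 on labelled day 14, so that the days differed by -6.67 ± 1.26 (adjusted p = 0.036) and -6.54 ± 0.77 (adjusted p = 0.015). Neither probe was well above background on the db/db + vehicle arrays labelled day 7. A second probe of Pramel34, well above background on all 4 arrays labelled day 7, had a log2 fold change of -0.81 there and was not called (adjusted p = 0.096). Pgr had measured log2 fold changes of 4.63 and 7.52, a difference of -2.89 ± 0.50 (adjusted p = 0.030), but it was not well above background in WT on labelled day 7, where only the bound of at least 6.32-fold holds. The sizes for these 3 genes are therefore not exact. Pgr did not pass with normexp background correction (-1.77), with a floor on dim signals (-1.94) or with slide as a fixed block (-3.29). Elovl5 was -1.25 and 0.56, a difference of -1.80 ± 0.26 (adjusted p = 0.023). None of the 4 differences passed with only the arrays compared, with slide as a fixed block, without vehicle replicate 1 of labelled day 7, or without vehicle replicate 1, vehicle replicate 2 or WT replicate 2 of labelled day 14. With normexp only that of Elovl5 passed, and with the replicate block only those of Pramel34 and Pgr.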

How the results depend on the processing

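The 1653 probes called between db/db + vehicle and WT became 1089 with only probes well above background on all arrays compared, 80 with only the 4 arrays compared, 932 with only the 8 arrays labelled day 7, 3054 without adjustment, and 659 to 1783 when 1 array was left out. Higher calls (606) became 403 with normexp, 964 with quantile normalization, 25 with the 4 arrays, 277 with the 8 arrays, 1160 without adjustment, 1070 with no fold minimum and 300 to 588 with 1 array left out. Lower calls (1047) became 674 with the stricter filter, 55 with the 4 arrays, 655 with the 8 arrays, 1894 without adjustment and 359 to 1195 with 1 array left out. Over all probes tested, the median log2 fold change (0.00) became -0.14 with normexp and 0.07 with quantile normalization. For oil-treated against untreated db/db wounds, the 44 calls became 90 with quantile normalization, 21 with the stricter filter, 88 with the floor, 0 with the 4 arrays, 8 with the 8 arrays, 1 with the replicate block, 7 with slide as a fixed block, 1437 without adjustment and 46 to 264 with 1 array left out. For the difference between labelled days, the 488 calls became 83 with normexp, 169 with the floor, 0 with only the arrays compared, 41 with the replicate block, 2 with slide as a fixed block, 2760 without adjustment and 0 to 1239 with 1 array left out. It has no value on the 8 arrays labelled day 7, since it needs both days. The 96 called members of the lists became 15 with the 4 arrays, 56 with the 8 arrays, 197 without adjustment and 33 to 95 with 1 array left out. Fewer arrays leave fewer degrees of freedom. The cause of the other shifts was not tested.

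On labelled day 7 the replicate number is also the slide. The replicate differences of WT and db/db + vehicle correlated with -0.134, those of db/db and db/db + vehicle with 0.332, and those of other pairs of groups with -0.375 to 0.268, so that the numbers were not taken to pair the samples in the comparison with WT. With the replicate block 1209 probes were called, and with the WT numbers crossed, a setting chosen after seeing the data, 1393. With normexp the fold change of 51 of the 103 named genes called was more than 1.5 times smaller, and quantile normalization moved none by so much. Of the 103, 89 were called with normexp, 99 with quantile normalization, 92 with the floor, 80 with the replicate block and 23 with only the 4 arrays, and 41 were called whichever array was left out. Among those not called with the replicate block were Reg3g, Naip6, Cd209b, Cfd, Mmp1b, Adam8 and Tgfb3. The direction turned only for Retnla (-0.22), which was not called, at 0.0356 with quantile normalization, 0.19 without vehicle replicate 2 and 0.18 without WT replicate 1, within a range of -0.63 to 0.19 with 1 array left out.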

Other observations

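Probes for olfactory, vomeronasal and taste receptors, looked at after the values were seen, were mostly dim: 22.4% of them were well above background on vehicle replicate 2 and 26.8% on vehicle replicate 1, with 25.7% and 22.6% on the WT arrays. Of 1504 such probes 347 were tested, of which 6 were called higher and 37 lower in the db/db + vehicle group. Of all probes tested, 2.04% were called higher and 3.53% lower. The median level of the receptor probes was -9.26 and -9.0 in the db/db + vehicle group, -8.37 and -8.53 in WT and -9.41 and -9.06 in untreated db/db wounds. On labelled day 14, 15 of the receptor probes were called. The number of them tested there is not given, so that no share can be set against the 8.81% of all probes tested.

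Besides Itgam and Xaf1, the genes with probes called in opposite directions were Cbfa2t3, Nhlh1, Pcbp2, Rpl21, Zfp961, Fbxl12os and 4921504E06Rik.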
